A study of Mus musculus with 22 samples.

Results

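Krt5, Krt14 and Krt15, the keratins of the basal layer, were followed through mouse esophageal epithelium that was untreated, inflamed or carcinogen-exposed. They are 3 of the 17541 genes in the files and 3 of the 42 numbered keratin genes. The 3 genes were singled out because Krt14 and Krt15 moved in opposite directions between ESCC (esophageal squamous cell carcinoma) and control mice, so the ESCC values of these genes are described without a test. The cells came from the peeled epithelium of C57BL6 mice. The assay was inDrop, in which each captured transcript carries a unique molecular identifier (UMI) and is read near its 3′ end. The 6 control mice were untreated, with mice 1, 2 and 6 aged 3 to 4 months (young) and mice 3, 4 and 5 aged 18 to 20 months (old). The 4 mice with eosinophilic esophagitis (EoE) like inflammation received MC903 on the ears and ovalbumin over 32 days, with mice 9 and 10 young (6 to 8 weeks) and mice 11 and 12 old (19 to 20 months). The 3 ESCC mice (8M, 17F and 17M, 8 to 10 months old) drank 4-nitroquinoline 1-oxide (4NQO) for 16 weeks and then had 8 weeks without it. The labels do not separate tumor from the epithelium beside it. The EoE and ESCC comparisons share the control mice, and no ESCC mouse has the age of a control mouse.

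Keratins build the intermediate filaments of epithelial cells, and a filament needs a type I and a type II keratin in equal number. Krt5 is the type II keratin of basal cells in stratified epithelia, and Krt14 and Krt15 are type I keratins that can pair with it. In the esophagus, cells that leave the basal layer turn down these genes and turn on the pair Krt4 (type II) and Krt13 (type I), which marks the suprabasal layers. Krt15 is also known as a label of long-lived basal cells in the mouse esophagus, and Krt14 as a standard driver of basal Cre lines.

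All 3 genes lie on the reverse strand (mouse GRCm38, GENCODE M21 annotation). Krt5 (ENSMUSG00000061527) is at chr15:101707070-101712898 with 9 exons, Krt14 (ENSMUSG00000045545) at chr11:100203162-100207548 with 8 exons and Krt15 (ENSMUSG00000054146) at chr11:100131758-100135928 with 8 exons. The type I genes are neighbors in a keratin cluster, 67233 bases apart with the keratins Krt19 and Krt9 between them, and Krt13 is 10192 bases from Krt15. The coding sequences of Krt14 and Krt15 are alike, with 71.8% identity over 1356 aligned bases, against 59.4% for Krt5 and Krt14. The longest run of identical aligned bases between Krt14 and Krt15 is 28 bases. Their most alike stretch of 60 coding bases differs at 3 positions, which are in capitals. It covers coding bases 360 to 419 of Krt14 and 291 to 350 of Krt15.
Krt14: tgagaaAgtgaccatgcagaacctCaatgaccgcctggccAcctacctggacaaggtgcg
Krt15: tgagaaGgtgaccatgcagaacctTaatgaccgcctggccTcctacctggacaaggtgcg
The UMI reads come from the other end of the transcript. None of the 270 runs of 31 bases in the last 300 bases of either gene occurs in a transcript of another gene, and the same holds for Krt5. A miRNA gene model, Gm44323, overlaps Krt5 on the opposite strand and has no entry in the files.

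The files hold 1500 cells per condition. Cells within 250 to 3500 genes and 100 to 9500 UMIs and not called non-epithelial were used: 1493 control cells (median 990 UMIs), 1471 ESCC cells (median 3108 UMIs) and 143 EoE cells (median 519 UMIs). In EoE, 144 of the 1500 cells were within the limits, which left 41, 57, 11 and 34 cells for mice 9 to 12. Depth goes with the condition and cannot be told apart from it. Nor can age in ESCC or in the young EoE mice, which were younger than the young controls. Levels are CPM, UMIs scaled to 1000000 UMIs per mouse or sum. The summed level of 14 immune markers was 0 CPM in EoE, 0 to 29.5 in controls and 104 to 174 in ESCC, with Cd8a at 0 in all 3. That of 6 endothelial markers was 71.6 to 278 CPM in EoE, where 5 of the 6 were at 0 and Pecam1 held the level, 0 to 9.94 in controls and 3.45 to 7.28 in ESCC. That of 7 fibroblast markers was 0 to 188, 59.6 to 369 and 13.3 to 120 CPM in EoE, control and ESCC mice. All 7 muscle markers were at 0 in control and EoE mice. The part of these markers in the results was not tested. In controls and ESCC, 239 barcodes were in both libraries of a mouse, and their counts differed by less than the sampling noise. They were therefore also counted once, which changed none of the calls of these genes. Between the libraries of a mouse, the levels of the 3 genes differed by at most 1.23-fold. Whether the mice of a group shared a cage, litter or day is not given in the sources used here, so p-values cover no spread beyond these mice. The edgeR p-values rest on a spread estimated over all mice of a fit and drawn toward that of other genes. That spread includes counting error. In the comparison of cycling cells it is the spread of differences within mice.

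Basal keratins were among the most abundant transcripts of the control epithelium. By mean CPM, Krt5 ranked 14 of 12434 genes detected, Krt15 ranked 15 and Krt14 ranked 38, while the suprabasal Krt4 ranked 1 and Krt13 ranked 3. The Krt5 level in control mice 1 to 6 was 5109, 6224, 6772, 3998, 4315 and 4600 CPM (mean 5170 ± 1106, SD, n = 6). Krt15 stood at 4384, 6155, 6304, 4056, 4609 and 4588 CPM (5016 ± 962). Krt14 was lower in each mouse, with 2705, 3382, 2495, 1499, 2519 and 2207 CPM (2468 ± 617). Mouse 4 was the lowest of the 6 for all 3 genes. The ratio of Krt15 to Krt5 UMIs stayed between 0.858 and 1.07 over the 6 mice, and that of Krt14 to Krt5 UMIs between 0.368 and 0.584. Of the type I UMIs of the pair, Krt14 thus held 27.0% to 38.2% in controls. Ratios of UMIs between genes also carry differences in capture, so they serve here to compare mice and not to give protein levels.

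**Figure D1:**
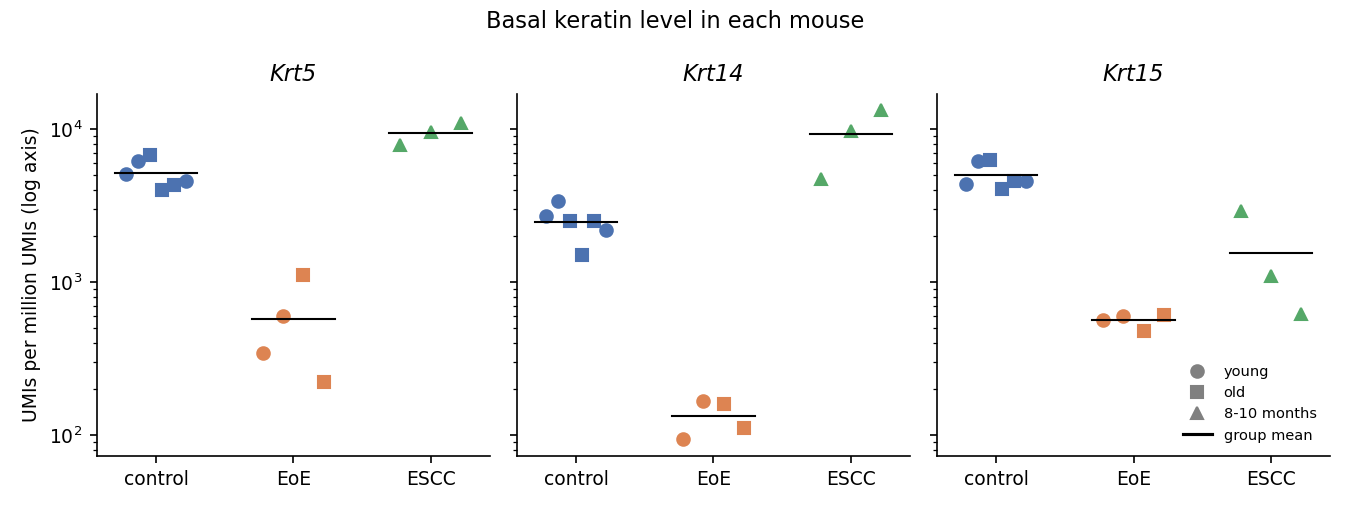
Level of Krt5, Krt14 and Krt15 in each mouse, in CPM on a log axis, with circles for young, squares for old and triangles for 8 to 10 month old mice and a bar at the group mean. The 4 EoE mice lie below every control mouse for all 3 genes, and the 3 ESCC mice lie above every control mouse for Krt5 and Krt14 and below every control mouse for Krt15.

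No difference with age passed the threshold for the 3 genes. The Krt5 level was 5109, 6224 and 4600 CPM in the young mice and 6772, 3998 and 4315 CPM in the old mice, so the groups overlapped. The log2 fold change (old over young) was −0.04 (SE 0.22, adjusted p = 1.00, edgeR quasi-likelihood test over 5149 genes). Krt14 had the furthest estimate, −0.31 (SE 0.23, adjusted p = 0.999), with 2705, 3382 and 2207 CPM in young and 2495, 1499 and 2519 CPM in old mice. Krt15 stood at 0.03 (SE 0.22, adjusted p = 1.00). Of all genes tested, 0.0971% were called with age, 0.0777% higher and 0.0194% lower in old mice. None of the 9 other keratins, 11 anchorage genes, 8 filament linkers and 11 promoter factors tested (lists given further on) was among them.

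Within control epithelium, the levels of the 3 genes fell from the basal to the suprabasal end. The cells were ordered by Krt4 plus Krt13 UMIs as a percent of all their UMIs and cut at the quintiles of control cells (0.443%, 1.05%, 3.10% and 7.35%), so that the lowest quintile holds the cells with the least suprabasal keratin. In the lowest quintile of controls, Krt5 measured 7488 to 9261 CPM (mean 8475 ± 790, n = 6), Krt14 4141 to 6427 CPM (5411 ± 955) and Krt15 7050 to 10246 CPM (8791 ± 1126). The second quintile overlapped the first over the mice for each gene, at means of 9090, 4747 and 8964 CPM. Within mice, Krt14 was already lower in the second quintile in all controls but mouse 6 (5256 CPM in the lowest, 6479 CPM in the second). Krt5 was higher in the second quintile in all but mouse 4 (7548 CPM in the lowest, 6917 CPM in the second). Krt15 went either way. From the second to the third quintile, the 3 genes fell by different amounts. In the third quintile, Krt5 still stood at 7180 ± 633 CPM, whereas Krt15 was at 4648 ± 959 CPM and Krt14 at 2222 ± 340 CPM. All 6 mice had less of each of the 3 genes in the third than in the second quintile.

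In the fourth quintile, Krt5 was at 1831 ± 626 CPM and Krt15 at 2012 ± 770 CPM. Krt14 fell furthest there, to 333 ± 230 CPM, with 14.1 CPM in mouse 6, from 1 UMI, and 104 CPM in mouse 3, from 3 UMIs. In the highest quintile (5 mice with at least 10 cells), Krt15 kept 12.8% ± 3.6 of its lowest-quintile level, against 3.41% ± 2.3 for Krt5 and 2.42% ± 1.1 for Krt14. Krt15 had the highest level of the 3 in the most suprabasal cells, at 871 to 1336 CPM against 70.4 to 513 CPM for Krt5 and 70.4 to 260 CPM for Krt14. For scale, 30 non-epithelial cells (7 of control and 23 of ESCC libraries) had 527 CPM of Krt5, 418 CPM of Krt14 and 127 CPM of Krt15. The call of these cells limits such levels, as the 3 genes are among the epithelial markers that must be outnumbered. Most of those cells come from libraries with more Krt14 and less Krt15 than controls, so they set no background level for control cells.

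**Figure D2:**
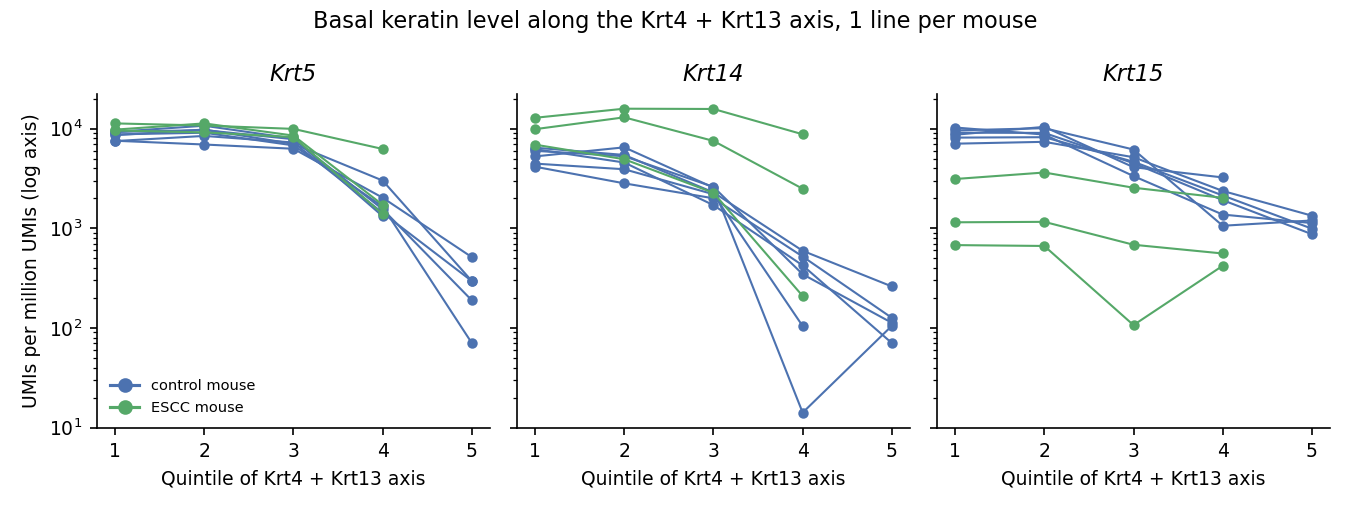
Level of each gene (CPM, log axis) over the 5 quintiles of the Krt4 plus Krt13 axis, with 1 line per control or ESCC mouse and sums of under 10 cells left out. In controls, Krt14 is at a lower part of its starting level than Krt5 in the third quintile, and Krt15 ends highest. The ESCC lines start above the control lines for Krt14 and below them for Krt15.

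Within single control cells the 3 genes were used together. To set cells of unequal depth on 1 scale, the exact chance of at least 1 UMI in a draw of 500 UMIs was computed for each cell with 500 UMIs or more (1458 of 1493 control and all 1471 ESCC cells). In the lowest quintile of controls, 81.3% ± 5.3 of cells had all 3 genes (range 72.4% to 87.5%, n = 6). Krt5 with Krt15 alone made 12.0% ± 5.7, and Krt5 with Krt14 alone 3.27% ± 2.9. Cells with all 3 came to 77.7% ± 11 in the second quintile, 42.3% ± 8.3 in the third, 9.56% ± 8.0 in the fourth and 2.49% ± 2.0 in the highest. Krt14 was the most often missing of the 3: in the third quintile it was in 53.2% ± 6.0 of cells, against 74.98% ± 8.1 for Krt15 and 92.4% ± 2.3 for Krt5. Of the 30 non-epithelial cells, 20.0% had a Krt5 UMI, 26.7% a Krt14 UMI and 6.67% a Krt15 UMI at full depth, at a median of 1774 UMIs. The call of those cells, which counts UMIs of the 3 genes against it, limits these shares too. The shares of Krt5 and Krt14 in the highest quintile were 11.7% ± 5.1 and 7.33% ± 2.4 at 500 UMIs, and the depths differ too much for a comparison.

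No difference between cycling and other cells passed the threshold for the 3 genes in control mice with the filter on low counts. With no filter all 3 were called higher in cycling cells, at log2 fold changes of 0.43, 0.38 and 0.34 for Krt5, Krt14 and Krt15 (edgeR, adjusted p = 5.25e-04, 0.0205 and 0.0184), in a fit whose median over all genes was 0.40. Basal cells are the dividing cells of this epithelium. Cells of the lowest and second quintiles were called cycling when they held at least 3 UMIs of S and G2/M genes, which gave 412 cycling and 185 other cells. Krt5 had a log2 fold change (cycling over other) of 0.05 (SE 0.06, adjusted p = 0.730, edgeR with the mouse as a block), and was higher in cycling cells in 3 of 6 mice. Krt14 had 0.01 (SE 0.08, adjusted p = 0.975, higher in 3 of 6 mice), with means of 5090 ± 1099 CPM in cycling and 5008 ± 1226 CPM in other cells. Krt15 had −0.05 (SE 0.06, adjusted p = 0.730, higher in 2 of 6 mice), with 8841 ± 1017 against 9033 ± 1543 CPM. Of the 647 genes tested, 9.43% were called, 5.56% higher and 3.86% lower in cycling cells. Cycling cells were deeper than the others of their mouse in each case, with median UMIs of 905 to 1404 against 743 to 1039, and the part of depth was not tested. Of the other lists, Dst, a cytoskeletal linker of the hemidesmosome, was lower in cycling cells (−0.56, SE 0.12, adjusted p = 1.34e-04), as were the immediate early factors Jun (−0.33, SE 0.10, adjusted p = 0.00892) and Fos (−0.23, SE 0.07, adjusted p = 0.0201). Trp63, named here after its value was seen, is the p63 factor of basal identity and had −0.01 (SE 0.18, adjusted p = 0.975).

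**Figure D3:**
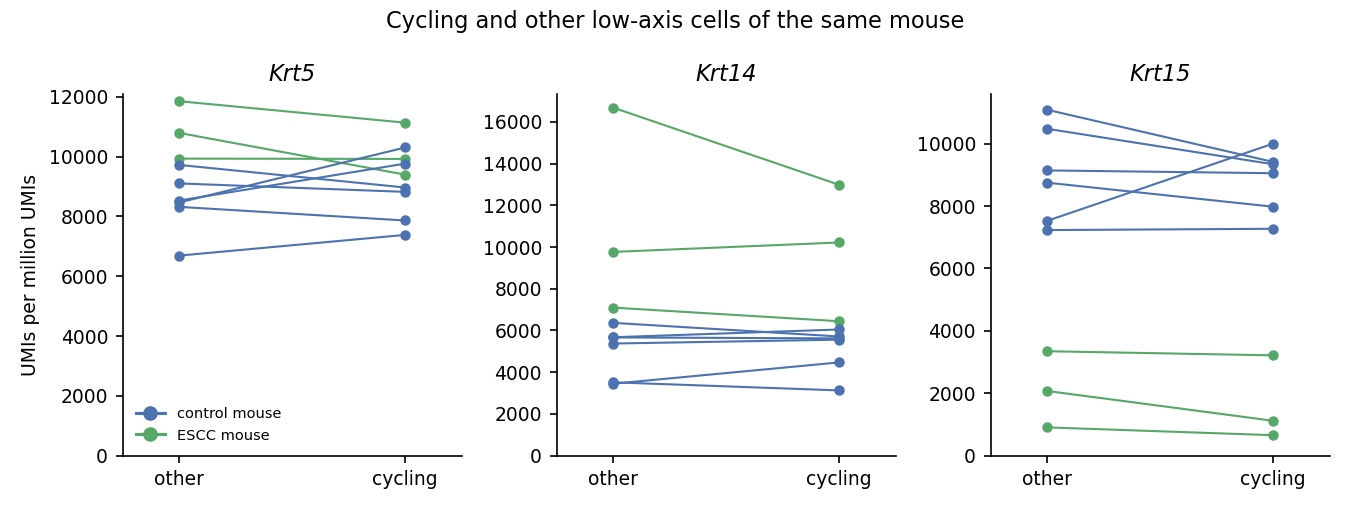
Level of each gene (CPM) in cycling and other low-axis cells, with a line joining both values of a mouse. Control lines run level or cross without a common direction. All 3 ESCC mice lie below the control mice for Krt15 in both kinds of cell.

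EoE mice had far less of all 3 basal keratins. The Krt5 level in mice 9 to 12 was 345, 597, 1121 and 223 CPM, against 3998 CPM in the lowest control mouse. Krt15 stood at 565, 597, 480 and 612 CPM, and Krt14 at 94.2, 167, 160 and 111 CPM. Every EoE mouse was below every control mouse for each gene, as was so for 26.5% of all genes tested, while 6.89% were higher in every EoE mouse. The log2 fold change was −3.60 for Krt5 (SE 0.32, adjusted p = 3.79e-10), −4.39 for Krt14 (SE 0.42, adjusted p = 1.83e-09) and −3.30 for Krt15 (SE 0.38, adjusted p = 6.18e-08, edgeR over 5866 genes). In this contrast, 34.5% of genes were called, 25.0% lower and 9.48% higher, with a median log2 fold change of −0.75 over all genes. The Krt14 value rests on 13 UMIs over the 4 mice, the Krt5 value on 47 and the Krt15 value on 57.

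The size of this drop depended on the cells used. Over all 1500 deposited EoE cells, most of them under the limits, Krt5 measured 979, 896, 1218 and 834 CPM, Krt14 618, 397, 471 and 348 CPM, and Krt15 1236, 896, 1283 and 904 CPM. The log2 fold changes were then −2.26, −2.28 and −2.08, still called (adjusted p = 1.84e-09, 2.27e-07 and 5.78e-06). Over those cells the 3 genes fell by near equal amounts. The effect of EoE did not differ detectably between old and young mice, with log2 differences of −0.55 (SE 0.71) for Krt5, −0.37 (SE 1.03) for Krt14 and −0.63 (SE 0.65) for Krt15 (adjusted p = 0.830, 0.973 and 0.805, edgeR interaction term).

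Summed per mouse, fewer basal cells and less RNA per basal cell cannot be told apart. The EoE cells sat toward the suprabasal end of the axis: 70.3% ± 17 of them were in the highest quintile (n = 4), against 17.5% ± 8.4 of control cells. Within the highest quintile, Krt5 in EoE mice 9 to 12 was 111, 201, 1016 and 0 CPM, which overlapped the control range of 70.4 to 513 CPM. Its count of 0 in mouse 12 allows up to 221 CPM. Krt14 there was 37.0, 0, 169 and 73.7 CPM (the 0 in mouse 10 allows up to 100 CPM), which also overlapped the control range. Krt15 was 518, 301, 508 and 442 CPM, below all 5 control mice, as was so for 11.5% of genes in this quintile, while 5.10% were above. The highest quintile has no upper bound, and over all cells used Krt4 averaged 98739 CPM in EoE and 25647 CPM in controls. Whether the EoE cells lay further along the axis inside this quintile was not tested. In the lowest quintile, mouse 10 alone had 10 cells, with 2437 CPM of Krt5, 1354 CPM of Krt14 and 1625 CPM of Krt15. Each of these was under the control range, from 9, 5 and 6 UMIs.

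The balance of Krt14 to Krt15 was lower in the EoE cells used, and this rested on the choice of cells and mice. Krt14 held 14.3%, 21.9%, 25.0% and 15.4% of the Krt14 and Krt15 UMIs in mice 9 to 12, each below the lowest control mouse. The difference in mean log2 ratio was −0.85 (two-sided exact permutation test over 6 and 4 mice, p = 0.0286, the smallest possible being 0.00952). It was −0.19 over all deposited cells (exact permutation p = 0.276), where the shares were 26.9% to 33.3%. Leaving out EoE mouse 9, 10 or 12 gave an exact permutation p of 0.0714 each. In controls, Krt14 held 5.88% to 20.8% of these UMIs in the highest quintile and 33.9% to 44.2% in the lowest.

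In ESCC, Krt5 and Krt14 stood above controls and Krt15 below them. The values of this paragraph are those the genes were chosen by and carry no test. Krt5 was 7888, 9523 and 10914 CPM in mice 8M, 17F and 17M, with a log2 fold change of 1.06 (SE 0.24). Krt14 was 4721, 9677 and 13338 CPM, a log2 fold change of 2.10 (SE 0.26). Krt15 was 2921, 1091 and 620 CPM, a log2 fold change of −1.49 (SE 0.33). By mean level, Krt5 ranked 2 and Krt14 ranked 3 of 14614 genes detected in ESCC, and Krt15 ranked 92. None of the 3 ESCC mice overlapped the controls for any of the 3 genes, while 8.69% of all genes tested lay wholly above and 17.5% wholly below the control mice. The contrast called 34.6% of genes, 17.8% higher and 16.8% lower.

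The order of the 3 ESCC mice was alike for these genes. Mouse 8M had the least Krt5, the least Krt14 and the most Krt15, mouse 17M was at the other end, and mouse 17F lay between them for each gene. Krt14 held 61.8%, 89.9% and 95.6% of the Krt14 and Krt15 UMIs in 8M, 17F and 17M, with a mean log2 ratio above that of controls by 3.799. Without mouse 8M the Krt15 log2 fold change was −2.39 and without 17M −1.11. The total of Krt14 and Krt15 UMIs per Krt5 UMI was 0.969, 1.13 and 1.28 in ESCC and 1.46 ± 0.12 in controls, with a highest value of 1.65. The ESCC mice were all below the lowest control mouse, mouse 3, by a small margin for 17M.

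Within the basal end of the axis, the differences ran the same way. These cells are part of the sums by which the genes were chosen, so this is not a separate check. ESCC cells sat low, with 71.0% ± 13 in the lowest quintile (n = 3) against 23.3% ± 10 in controls. A shared quintile need not be an equal place on the axis, and the place inside the lowest quintile was not tested. Cycling cells of the lowest and second quintiles had mean Krt4 levels of 527 CPM in ESCC and 2079 CPM in controls. Their Krt13 means were 1411 and 2398 CPM. These means also carry the mix of both quintiles. The lowest and second quintiles held 1083 and 177 of the ESCC cells used, against 299 and 298 control cells. Comparing the lowest quintile alone, Krt5 was 9568, 9754 and 11266 CPM in 8M, 17F and 17M, above the 9261 CPM of the highest control mouse by a small margin. Krt14 there was 6895, 9861 and 12827 CPM, against 6427 CPM in the highest control mouse. Krt15 was 3118, 1147 and 677 CPM, against 7050 CPM in the lowest control mouse. All genes of this quintile gave 6.60% wholly above and 8.42% wholly below the control mice. The size of the differences moved with the axis position for each gene. The ESCC and control means of Krt14 were 9861 and 5411 CPM in the lowest quintile, against 9245 and 2468 CPM over all cells, so its difference was smaller there. Krt5 also differed less, at 10196 and 8475 CPM against 9442 and 5170 CPM. Krt15 differed more, at 1647 and 8791 CPM against 1544 and 5016 CPM.

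Krt14 also stayed on further along the axis in 2 of the ESCC mice. In the third quintile, it was at 7514 CPM in 17F and 15720 CPM in 17M, whereas 8M, at 2266 CPM, was inside the control range of 1704 to 2597 CPM. In the fourth quintile it was at 209 CPM in 8M, 2489 CPM in 17F (10 cells) and 8761 CPM in 17M (15 cells), and the controls had at most 594 CPM. Krt15 in the third quintile was 2549, 683 and 107 CPM, all below the 3336 CPM of the lowest control. The share of all genes for which this was so was not computed for the third quintile. In the fourth quintile, 8M had 2019 CPM of Krt15 and was within the control range of 1059 to 3234 CPM. In that quintile, mouse 8M was within the control range for both genes, and its Krt14 share, 9.38%, was inside the control range of 1.32% to 23.6%. The ESCC mice had 1 or 2 cells each in the highest quintile, which are not shown.

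**Figure D4:**
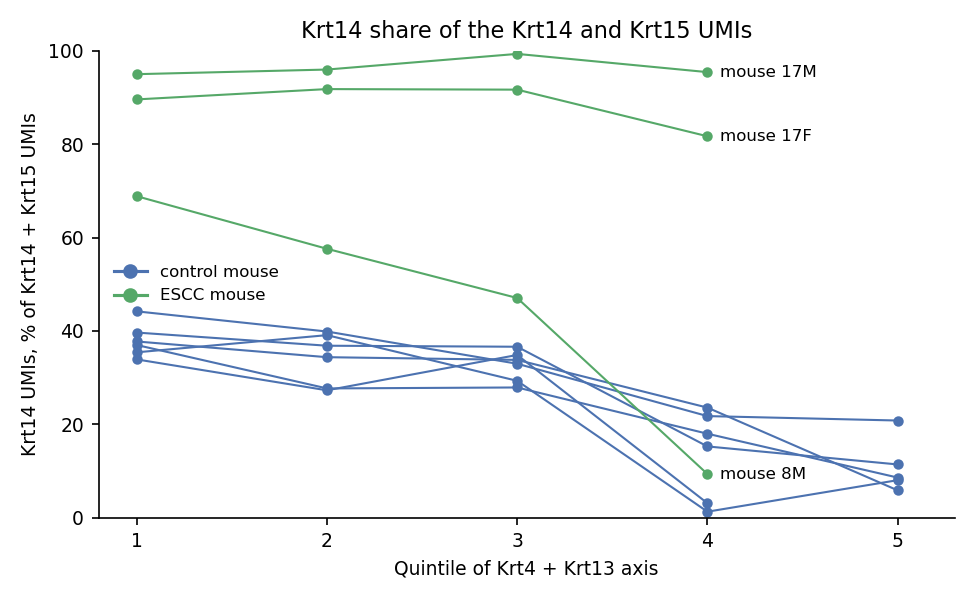
Krt14 UMIs as a percent of Krt14 plus Krt15 UMIs over the quintiles of the Krt4 plus Krt13 axis, with 1 line per mouse. Controls run from 33.9% to 44.2% in the lowest quintile down to 5.88% to 20.8% in the highest. ESCC mouse 8M starts at 68.9% and joins the controls by the fourth quintile, while 17F and 17M stay at 81.7% or above throughout.

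Seen cell by cell, the shift in ESCC ran the same way, in cells that the choice of the genes had used. In the lowest quintile at a draw of 500 UMIs, 58.3%, 29.0% and 21.7% of cells in 8M, 17F and 17M had all 3 genes, below the 72.4% of the lowest control mouse. Krt5 with Krt14 and without Krt15 made 31.7%, 66.3% and 75.8% of cells, against 0.994% to 8.18% in controls. Krt5 itself was in 97.9% ± 0.55 of ESCC cells and 96.8% ± 1.5 of control cells of this quintile. Krt15 was in 39.3% ± 23 of ESCC cells and 96.1% ± 3.3 of control cells. In cells thinned to 500 UMIs, Krt14 outnumbered Krt15 in 62.1%, 90.4% and 96.3% of cells in 8M, 17F and 17M, and in 13.6% to 24.6% of cells in control mice. At full depth, 9.60%, 43.8% and 53.2% of the ESCC cells in this quintile had no Krt15 UMI, with median depths of 2760 to 3373 UMIs.

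**Figure D5:**
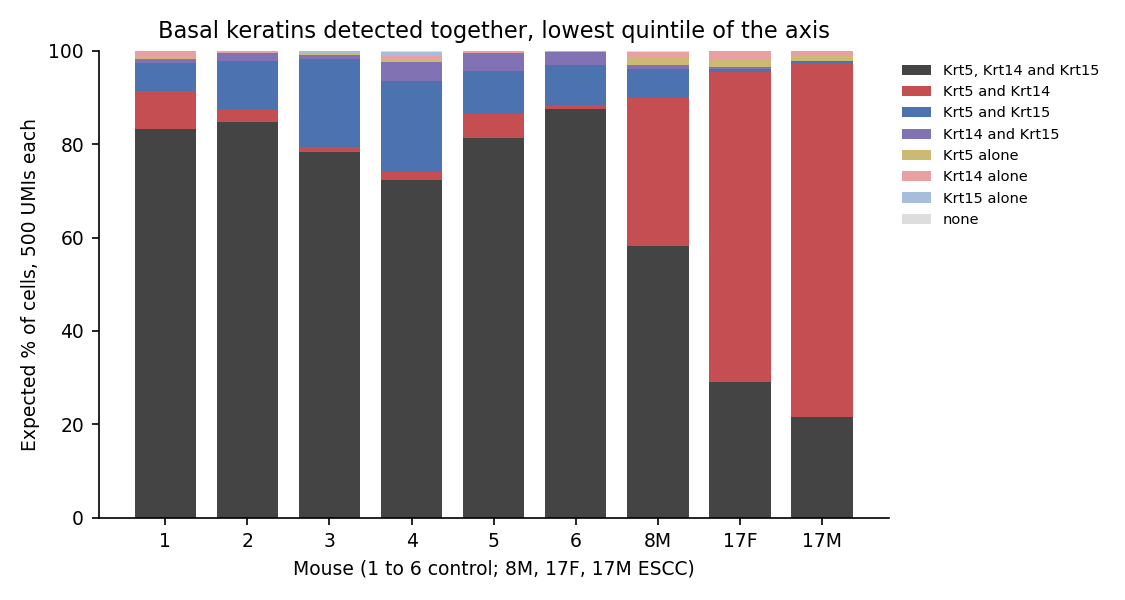
Expected percent of lowest-quintile cells in which each combination of the 3 genes has at least 1 UMI in a draw of 500 UMIs, as stacked bars for the 6 control and 3 ESCC mice. Cells with all 3 genes make 72.4% to 87.5% in controls. Cells with Krt5 and Krt14 but no Krt15 make 31.7% to 75.8% in ESCC.

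Cycling and other low-axis cells ranked the 3 ESCC mice alike. Krt14 was 6442, 10217 and 12980 CPM in cycling and 7097, 9765 and 16680 CPM in other cells of 8M, 17F and 17M. Krt15 was 3215, 1117 and 656 CPM in cycling and 3346, 2073 and 906 CPM in other cells. Krt15 was thus below the control range in both kinds of cell. The share of all genes for which this was so was not computed for this split. These cells are also part of the sums by which the genes were chosen. The ESCC sums hold 1144 cycling and 116 other cells, with median depths of 2926 to 3408 and 1775 to 2568 UMIs, and the part of depth was not tested.

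The other keratins put these values in context. Of the 39 other numbered keratins, 10 had enough UMIs for the test. In EoE, 2 were called higher and none lower at an adjusted p under 0.05 (edgeR, median log2 fold change −0.56 over the 10, against −0.75 over all genes, of which 9.48% were called higher and 25.0% lower). Krt4, the suprabasal type II keratin, rose from a mean of 25647 ± 8725 CPM to 98739 ± 26350 CPM (log2 fold change 1.62, SE 0.33, adjusted p = 3.36e-04). The other was Krt78 (2.45, SE 0.58, adjusted p = 0.00186), named after its value was seen. Krt13, the partner of Krt4, had 0.53 (SE 0.31, adjusted p = 0.193), at 12589 ± 2541 CPM in controls and 21142 ± 10043 CPM in EoE. In ESCC, all 10 were called, 4 higher and 6 lower, in the contrast that chose the basal genes and that called 34.6% of all genes. Krt16 and Krt17, type I keratins known from wounded and hyperproliferative epithelium, had log2 fold changes of 9.14 (SE 0.77) and 3.71 (SE 0.44), and the epidermal pair Krt1 and Krt10 had 1.20 (SE 0.41) and 1.22 (SE 0.38). The 5 lower ones that are abundant enough to name were Krt4 (−2.997, SE 0.43), Krt13 (−1.28, SE 0.37), Krt23 (−1.002, SE 0.34), Krt32 (−4.03, SE 0.44) and Krt80 (−3.95, SE 0.51). Krt16 had 0 to 3.55 CPM in controls, so its fold change depends on the prior count of the fit. Of the type I keratins named here, Krt15, Krt13, Krt23 and Krt32 were lower in ESCC, and Krt14, Krt10, Krt16 and Krt17 were higher.

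Basal cells also carry the genes that anchor their filaments to the basement membrane. Of 12 such anchorage genes, 11 were tested, and 6 were called lower and none higher in EoE (edgeR, median log2 fold change −2.29), against 25.0% lower, 9.48% higher and a median of −0.75 over all genes. Col17a1, the hemidesmosomal collagen, went from 709 ± 134 CPM to 13.9 ± 28 CPM (log2 fold change −6.22, SE 0.61, adjusted p = 2.51e-09), and Dst fell by 1.52 on the log2 scale (SE 0.34, adjusted p = 8.67e-04). The integrin subunits Itga6 (−0.49, SE 0.30, adjusted p = 0.213) and Itgb4 (−0.72, SE 0.33, adjusted p = 0.0862) did not pass. In ESCC, 4 of the 11 were called higher and none lower, against 17.8% higher and 16.8% lower of all genes. The 4 most abundant had log2 fold changes of 0.99 (SE 0.22) for Itga6, 0.79 (SE 0.21) for Itgb4, 0.47 (SE 0.20) for Col17a1 and −0.63 (SE 0.25) for Dst. Of these 4, Itga6 and Itgb4 were called, and the others called were Itgb1 (0.44, SE 0.17) and Itga3 (1.36, SE 0.25), named after their values were seen.

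The 8 filament linkers, which tie keratin to desmosomes or the cornified envelope, were all tested. In EoE, 1 was called higher and 2 lower (edgeR, median log2 fold change 0.02), against 9.48% higher and 25.0% lower of all genes. Ppl (periplakin) rose by 1.88 on the log2 scale (SE 0.32, adjusted p = 3.24e-05), and Pkp1 (plakophilin 1) fell by 0.863 (SE 0.26, adjusted p = 0.0112). The other lower one was the desmosomal cadherin Dsc3 (−1.08, SE 0.31, adjusted p = 0.00757), named after its value was seen. Dsp (desmoplakin) had 0.07 (SE 0.25, adjusted p = 0.850) and Jup (plakoglobin) −0.03 (SE 0.23, adjusted p = 0.922). In ESCC, where 34.6% of all genes were called, Pkp3 (0.71, SE 0.22) was called higher, and Evpl (−1.92, SE 0.25) and Ppl (−2.61, SE 0.37) lower.

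Of 12 factors known to act on keratin promoters, 11 were tested. In EoE, 1 was called higher and 5 lower (edgeR, median log2 fold change −1.27), against 9.48% higher, 25.0% lower and a median of −0.75 over all genes. Klf4, a factor of differentiating epithelium, rose from 1261 ± 271 to 6314 ± 2557 CPM (log2 fold change 2.12, SE 0.25, adjusted p = 1.03e-07), and the basal factor Klf5 fell by 1.27 on the log2 scale (SE 0.24, adjusted p = 1.38e-04). Jun (−2.04, SE 0.29, adjusted p = 2.44e-06) and Fos (−1.12, SE 0.26, adjusted p = 0.00150) also fell. Trp63 went from 440 ± 79 to 37.7 ± 56 CPM (log2 fold change −3.04, SE 0.46, adjusted p = 5.22e-06), and the retinoic acid receptor Rarg had −2.68 (SE 1.02, adjusted p = 0.0405). In ESCC, again beside 34.6% of all genes, Tfap2c was called higher (1.01, SE 0.27), and Tfap2a (−0.52, SE 0.20), Klf5 (−0.66, SE 0.22), Jun (−0.79, SE 0.25) and Fos (−1.56, SE 0.27) lower. Trp63 was at 367 ± 59 CPM there (log2 fold change −0.08, SE 0.20). The choice to name Trp63, Rarg and the Tfap2 genes followed a look at their values.

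The genes most like each basal keratin differed between the 2 views of the data. Over the 9 control and ESCC mice, Krt5 and Krt14 had a Pearson r of 0.94 in log2 CPM, Krt5 and Krt15 −0.78 and Krt14 and Krt15 −0.90, values in which the gap between the conditions is the main part. The genes nearest to Krt5 over these mice were Msn (r = 0.99), Arpc1b, Polk, Phf5a and Raph1. Those nearest to Krt14 were Mapk1ip1l (0.98), Bod1, Psmd1 and Rapgef5, and those nearest to Krt15 were Cyp2f2 (0.97), Efemp1, Ces1d, Fam107b and Fabp6. Cyp2f2, a cytochrome P450 of the airway, had 2704 ± 643 CPM in controls and 229 ± 345 CPM in ESCC. No gene was on more than 1 of these lists.

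Over 29 sums of control cells, 1 for each mouse and quintile, the 3 genes ran together, with r of 0.89 for Krt5 and Krt14, 0.90 for Krt5 and Krt15 and 0.94 for Krt14 and Krt15. The genes nearest to Krt5 along the axis were Itga6 (r = 0.98), Sod1, S100a6, Lmo4 and Col17a1. Those nearest to Krt14 were Col17a1 (0.96), Ptn, Top2a, Cavin1 and Efemp1, and those nearest to Krt15 were Wfdc2 (0.94), Slc6a6, Serpinh1, Dst and Lamb3. Of these 15 places, Itga6, Col17a1 (for Krt5 and Krt14), Dst and Lamb3 are anchorage genes. The sums share the mice, the libraries and the axis, and they are given as a description.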

How the data were processed

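The authors deposited raw UMI counts, whole numbers with no normalization. Barcodes were extracted with UMI-tools 1.0.0, reads aligned to GRCm38 with STAR 2.7.3 and assigned with featureCounts, cells filtered in Seurat and 1500 drawn per condition. Cells outside the limits of the study were dropped here, as were cells with 3 or more UMIs on immune, fibroblast, endothelial or muscle lists that outnumbered their epithelial marker UMIs. Krt5, Krt14 and Krt15 are among those epithelial markers. Mouse sums over all libraries (13 mice, 6245 to 2103543 UMIs) were tested by the quasi-likelihood method of edgeR 4.0.16 under R 4.3.3, after TMM scaling and filterByExpr. P-values were adjusted over all genes tested by Benjamini and Hochberg (threshold 0.05). DESeq2 1.42.0 was an alternative. Ratios of counts used log2 after adding 0.5. Scrublet in scanpy 1.11.5 called 261 of 4500 cells doublets per library. They were kept, except in an alternative. Counting shared barcodes once was chosen after seeing the data. Named genes were the members, Krt4 and Krt13, called keratins averaging 5 or more in log2 CPM, the 5 genes most like each member (a gene of these is not reported here) and the 4 most abundant members of each list. The members and lists were chosen with earlier results of these data known. The fits were tested on simulated data. Limits for counts of 0 (3 UMIs of the sum) cover counting error only.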

Additional observations from a re-analysis of the deposited data

How the results depend on the processing

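The call and direction of Krt5, Krt14 and Krt15 in EoE held in all 19 alternatives each, with log2 fold changes of −3.94 to −2.26, −4.74 to −2.28 and −3.63 to −2.08. The ESCC directions also held in all 17 alternatives, with 1.73 to 2.39 for Krt14 and −2.39 to −1.11 for Krt15. The EoE log2 ratio of Krt14 to Krt15 was −0.19 over all deposited cells and −0.69 without called doublets (exact permutation p = 0.276 and 0.0571), and −1.08 to −0.69 with 1 mouse left out. The median log2 fold change of all genes in EoE ranged from −1.22 with no filter to 0 with DESeq2. None of 28 groups of control or EoE values held a sample far from the others. The 3 ESCC mice were too few for this check and were not covered by it.

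For old against young mice, Krt15 was −0.019 without TMM and −0.0051 with no filter. Leaving out 1 mouse gave −0.29 to 0.082 for Krt5, −0.44 to −0.11 for Krt14 and −0.15 to 0.17 for Krt15. No alternative called them. Genes called numbered 24 with no filter, 3 with DESeq2 and 0 to 8 with 1 mouse left out, against 5.

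The replicate block by mouse applied to the cycling comparison, where both sums come from 1 mouse. Without it, 27 genes were called against 61, and the 3 genes gave 0.06, 0.02 and −0.03 with no other call. No paired analysis was possible between the conditions because their mouse numbers are not shared. With no filter, Krt5, Krt14 and Krt15 gave 0.43, 0.38 and 0.34 and were called (edgeR, adjusted p = 5.25e-04, 0.0205 and 0.0184), in a fit whose median over all genes was 0.40 and that called 218 genes. Krt14 was −0.085 at 5 cell cycle UMIs (149 genes called), −0.066 at 2 G2/M UMIs and −0.011 with shared barcodes once. Krt15 was 6.14e-04 without TMM, 0.0097 with DESeq2 and −0.02 as a mean ratio per mouse (exact sign-flip permutation p = 0.906). Leaving out 1 mouse gave −0.023 to 0.068 for Krt14, −0.10 to 0.018 for Krt15, 0.03 to 0.12 for Krt5 and 33 (mouse 4) to 81 genes called. The cause of these changes was not tested.

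In EoE, leaving out 1 mouse gave 1150 (mouse 10) to 2018 genes called. Along the axis, 59.6% of lowest-quintile control cells had all 3 genes at 300 UMIs, and the Krt5 log2 ratio of highest to lowest quintile was −3.95 on Krt13 alone. An axis of Krtdap could not be cut into quintiles, as too many cells had no UMI of it. The 143 EoE cells limit every EoE value.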
